A study of Homo sapiens with 11 samples.

Results

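Complement is a chain of plasma and membrane proteins of innate immunity, and 8 of its genes were followed here in a renal cancer line treated with a drug combination: the components C1R, C1S, C3 and CFB, the soluble regulator CFI and the membrane regulators CD46, CD55 and CD59. They were found by symbol among the 26485 genes of the count tables, and all 8 were present. They were chosen by measured values, the differences between treated and control cells at 24 h and at 2 h. Those differences are therefore described here without p-values. Counts of the 8 under call rules are given, and nothing is read from them. RNA had been sequenced from Caki-1-SR, a sunitinib-resistant subline of Caki-1, a human clear cell renal cell carcinoma line from a skin metastasis; it was 1 clone, and its medium held 1 µM sunitinib, which inhibits receptor tyrosine kinases. Treated cells (ODC) received Rapta-C at 2 µM, an organometallic ruthenium compound, erlotinib at 1 µM, an EGFR inhibitor, metformin at 1 µM, an antidiabetic drug, and parthenolide at 5 µM, a plant lactone. Control cells (CTRL) did not receive the combination; the study calls them untreated in one place and sham-treated in another. There were 3 CTRL and 3 ODC libraries at 24 h, and 2 CTRL and 3 ODC libraries at 2 h. The 2 h libraries carry November and the 24 h libraries January in their titles, so that time of treatment and month cannot be told apart.

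In the classical pathway, the serine proteases C1r and C1s sit on the recognition molecule C1q: C1r cleaves C1s, and C1s cleaves C4 and C2 to build an enzyme that splits C3. In the alternative pathway, factor B, the product of CFB, binds C3b and forms the enzyme that amplifies the cascade. Host cells keep C3b in check with CD46 and with factor I, the protease made by CFI, for which CD46 is a cofactor. CD55 hastens the decay of the C3-splitting enzymes, and CD59 blocks the membrane attack complex at the last step; CD55 and CD59 are held in the membrane by a glycosylphosphatidylinositol (GPI) anchor. The liver makes most plasma complement, but epithelial cells, those of the kidney included, make components of their own.

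The 24 h libraries held 17785229 to 20882856 counts each, and the 2 h libraries were deeper, with 25782895 to 31118349. Levels are given as CPM, the usual scaling of a gene's counts to the library total, with TMM factors over the 11 libraries. A floor of 3 counts corresponded to 0.146 to 0.167 CPM in the 24 h libraries and to 0.0942 to 0.113 CPM in the deeper ones. Nothing states that replicates came from separate cultures, so p-values measure only the spread between these libraries. The epithelial genes PAX8, KRT8 and KRT18 and the mesenchymal gene VIM were abundant in every library, whereas CA9, a usual marker of clear cell renal carcinoma, had 0 to 1 counts and PAX2 had 0 to 4. In bulk RNA, fewer cells of a type and less RNA per cell cannot be told apart.

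CTRL 2 h replicate 1 stood apart from the other libraries. It held 1081 counts of the collagen gene COL3A1, against 0 to 6 elsewhere, 65 of LUM against 0 to 4 and 73 of DCN against 0 to 3. Genes of complement itself did the same: SERPING1, the C1 inhibitor, had 55 counts there and 0 to 1 elsewhere, and C1QA, C1QB and C1QC, which encode C1q and are typical of macrophages, had 17, 25 and 10 counts there and 0 in every other library. In all, 17 genes had at least 50 counts in that library and at most 10 in each of the others. These genes were chosen after their values were seen. The summed level of the 4 fibroblast markers was 49.4 CPM in that library and 3.08 to 5.58 CPM in the other 2 h libraries. For the 8 genes, log2 differences that rest on it are also given without it.

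On hg38 with GENCODE 44, all 8 are annotated as protein-coding genes. C1R (chr12:7080214-7092540, minus strand) and C1S (chr12:6988259-7071032, plus strand) lie tail to tail, 9181 bases apart, and C1R overlaps the related gene C1RL on the same strand. C3 is at chr19:6677704-6730562 on the minus strand and overlaps GPR108. CFB, at chr6:31945650-31952086 on the plus strand, follows C2 and overlaps its annotation, and CFI is at chr4:109731008-109802150 on the minus strand. CD55 (chr1:207321519-207386804) and CD46 (chr1:207752037-207795513) share a strand of chromosome 1, 365.2 kb apart, and CD59 is at chr11:33703010-33736479 on the minus strand. C1S overlaps LPCAT3, and C1S, CFB, CFI and CD59 each overlap a protein-coding annotation that has no gene symbol. Reads in the overlapping stretches could have been split or dropped in counting.

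RefSeq promoter windows (GRCh38.p14, 250 bases before to 50 after a start) were at hand for 6 of the 8 genes: C1R, CFB, CFI, CD46, CD55 and CD59. Of these, 4 windows are shown, because the results turn on their genes: C1R and CD59 stood apart from CTRL in opposite directions at 24 h, CFB varied 12.3-fold between treated libraries, and CFI differed most between the control sets. Capitals mark matches, on either strand, to the C/EBP motif TTGCNNAA, the STAT motif TTCNNNGAA, the interferon-response type motif GAAANNGAA, the NF-κB consensus, the NRF2 type motif TGACNNNGC or TATAAA.
C1R, chr12:7092396-7092695, minus strand: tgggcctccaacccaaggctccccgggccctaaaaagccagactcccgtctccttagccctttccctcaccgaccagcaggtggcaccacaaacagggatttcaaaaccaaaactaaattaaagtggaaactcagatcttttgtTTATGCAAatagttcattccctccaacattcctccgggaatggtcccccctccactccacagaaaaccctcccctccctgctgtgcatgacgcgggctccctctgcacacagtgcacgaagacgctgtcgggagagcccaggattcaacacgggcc
CFB, chr6:31945845-31946144, plus strand: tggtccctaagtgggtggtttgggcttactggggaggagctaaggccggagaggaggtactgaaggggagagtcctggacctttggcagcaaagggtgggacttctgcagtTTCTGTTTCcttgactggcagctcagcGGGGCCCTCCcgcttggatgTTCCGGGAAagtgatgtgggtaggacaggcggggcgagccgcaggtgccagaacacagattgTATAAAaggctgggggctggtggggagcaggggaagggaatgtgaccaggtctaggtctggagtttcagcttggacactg
CFI, chr4:109801950-109802249, minus strand: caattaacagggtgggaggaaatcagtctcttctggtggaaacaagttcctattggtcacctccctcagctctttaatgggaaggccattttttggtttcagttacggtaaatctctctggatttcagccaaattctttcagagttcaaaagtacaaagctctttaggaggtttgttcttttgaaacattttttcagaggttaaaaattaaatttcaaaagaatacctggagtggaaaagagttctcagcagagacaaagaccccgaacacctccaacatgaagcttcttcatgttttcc
CD59, chr11:33736430-33736729, minus strand: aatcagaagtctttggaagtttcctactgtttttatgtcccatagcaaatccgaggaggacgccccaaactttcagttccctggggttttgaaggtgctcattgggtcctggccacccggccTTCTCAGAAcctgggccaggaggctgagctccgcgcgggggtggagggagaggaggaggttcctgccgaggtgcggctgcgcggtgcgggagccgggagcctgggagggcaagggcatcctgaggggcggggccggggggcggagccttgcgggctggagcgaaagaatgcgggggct
The C1R window held a C/EBP match at -106 from the start. A separate start of C1R, with its window at chr12:7091844-7092143, had a C/EBP match at -167 and a STAT match at -86. The CFB window held the interferon-response type match at -139, the NF-κB match at -112, a STAT match at -92 and TATAAA at -30. The CD59 window held a STAT match at -128, which a neighbouring start (chr11:33736374-33736673) shared at -184, and the window of a more distant CD59 start, at chr11:33722900-33723199, held C/EBP matches at -191 and -53. The CFI window held none of the 6 motifs, nor did those of CD46 and CD55. Among all 35116 RefSeq windows of this length, 10.5% held the C/EBP motif, 7.66% the STAT motif, 8.11% the interferon-response type, 11.3% the NF-κB consensus, 13.3% the NRF2 type and 11.5% TATAAA, so that each is common, and a match is a description of the letters only.

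At 24 h the components C1S, C3 and C1R were higher in every ODC library than in any CTRL library, and the regulators CD46 and CD59 were lower in every one. CFB and CD55 overlapped between the groups, and CFI was barely detected.

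C1S, the gene of the protease C1s, had the largest log2 fold change of the 7 genes tested. Its level was 1.71, 2.78 and 3.29 CPM in the CTRL libraries (35, 53 and 59 counts) and 9.71, 20.1 and 10.2 CPM in the ODC libraries (196, 372 and 209 counts). The groups did not overlap, and ODC replicate 2 was the highest. The means were 2.59 ± 0.806 and 13.3 ± 5.90 CPM (SD, n = 3 each), a log2 fold change of 2.37 with a standard error (SE) of 0.36, larger than that of 99.9% of the 12689 genes tested. Its partner C1R was at a lower level, 0.830, 0.787 and 0.334 CPM in CTRL (17, 15 and 6 counts) against 1.34, 2.65 and 1.02 CPM in ODC (27, 49 and 21 counts). The groups again did not overlap and ODC replicate 2 was again the highest. The log2 fold change of C1R was 1.34 (SE 0.48), and without ODC replicate 2 it was 0.83.

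C3, on which all pathways converge, stood at 41.0, 61.5 and 54.3 CPM in CTRL (839, 1172 and 975 counts). In ODC it was at 190, 406 and 118 CPM (3843, 7498 and 2437 counts). Every ODC library lay above every CTRL library, but the ODC libraries themselves differed 3.43-fold. The group means were 52.3 ± 10.4 and 238 ± 149.6 CPM (SD, n = 3 each), with a log2 fold change of 2.19 (SE 0.42). Without ODC replicate 2 this was 1.56 for C3 and 1.94 for C1S.

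CFB, which encodes factor B, was at 2.39, 6.61 and 1.34 CPM in CTRL and at 5.60, 13.7 and 1.12 CPM in ODC. The groups overlapped: ODC replicate 3 was the lowest of the 6 libraries, and ODC replicate 2 the highest, 12.3-fold above it. The log2 fold change was 0.98 with an SE of 0.83, close to its own size. It was -0.05 without ODC replicate 2 and 1.86 without CTRL replicate 2. CFI, the gene of the C3b-cleaving protease, had 1, 3 and 0 counts in CTRL and 1, 10 and 0 counts in ODC. It did not pass the filter on low counts at 24 h, and a difference was not detectable at this depth.

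The membrane regulators were far more abundant than the proteases and differed less. CD46, the cofactor of factor I, was at 391, 355 and 372 CPM in CTRL and 305, 290 and 329 CPM in ODC. All ODC libraries lay below all CTRL libraries, with a log2 fold change of -0.27 (SE 0.09). CD59, the inhibitor of the membrane attack complex, was at 662, 532 and 603 CPM in CTRL and 432, 396 and 461 CPM in ODC. It too was lower in every ODC library, with a log2 fold change of -0.48 (SE 0.11), below that of all but 4.19% of genes. CD55, the decay-accelerating factor, was at 47.7, 32.6 and 47.1 CPM in CTRL and 46.3, 42.0 and 67.1 CPM in ODC. These groups overlapped, and the log2 fold change of 0.29 (SE 0.21) was 0.06 without ODC replicate 3.

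**Figure D1:**
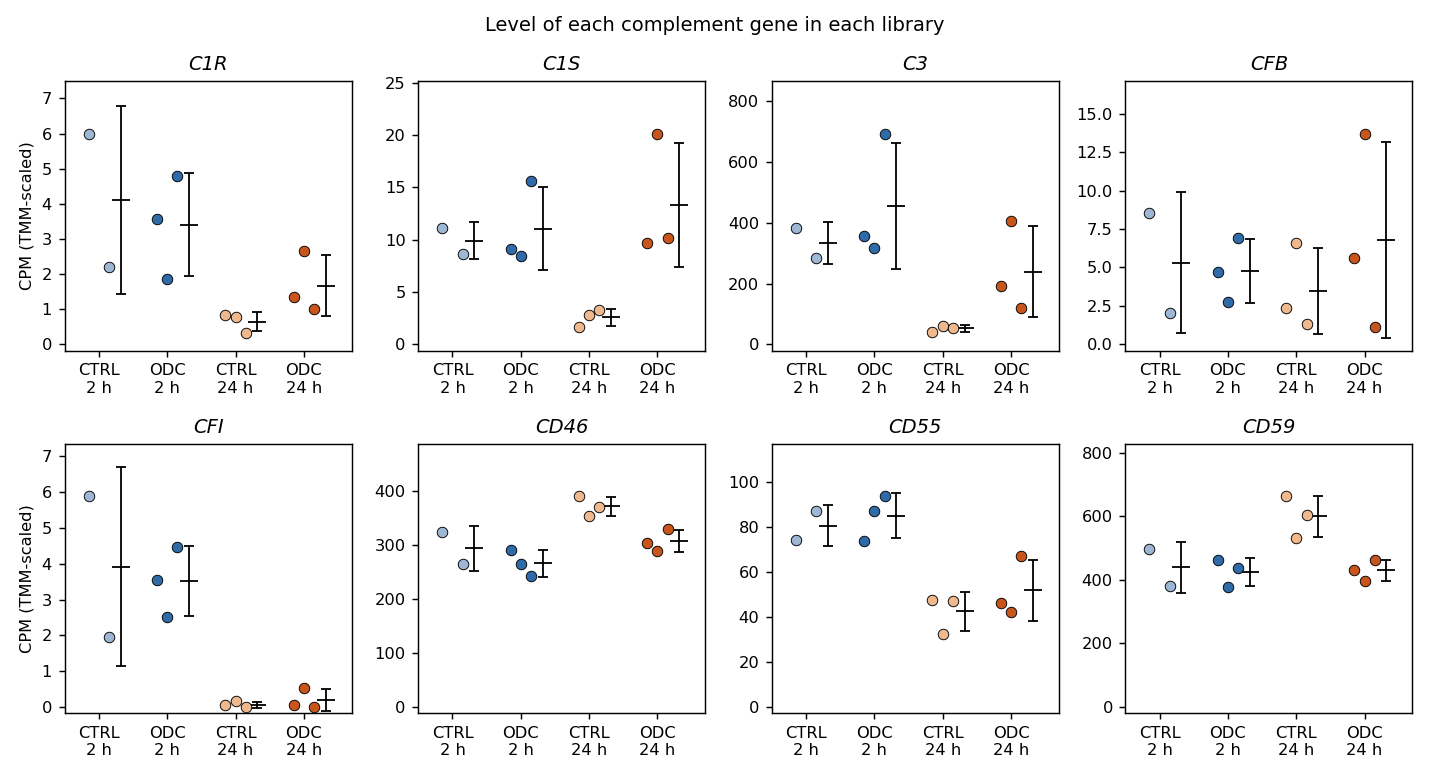
Level of each gene in CPM (vertical axis, linear) in each of the 11 libraries (points), by group, with the mean and SD of the group beside the points. At 24 h C1R, C1S and C3 sit higher and CD46 and CD59 lower in all 3 ODC libraries than in all 3 CTRL libraries; at 2 h every gene overlaps between the groups.

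Of the 7 genes tested at 24 h, 3 were wholly above CTRL, where 9.36% of all genes tested were, and 2 wholly below, where 8.53% were. The study's looser call rule was an unadjusted p under 0.05 with a fold change of at least 2. Its stricter rule put a false discovery rate under 0.05 in place of the unadjusted p. The looser rule took in 3 of the 7 (C1R, C1S and C3) and 2.35% of all genes. An adjusted p under 0.05, as the stricter rule asks, was met by 0 of the 7 in edgeR, beside 0.189% of all genes. DESeq2 gave 3 (C1S, C3 and CD59) at that threshold, beside 2.98%. Since the choice used this contrast, nothing is read from these counts. The looser count was 2 without ODC replicate 2 or without CTRL replicate 3 and 4 without ODC replicate 3. For those fits the share of all genes is not given here.

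The library numbers at 24 h alternate between CTRL and ODC. With neighbouring numbers taken as pairs, a choice made after the data were seen, the log2 fold changes at 24 h were 2.33 (SE 0.25) for C1S, 2.04 (SE 0.28) for C3, 1.33 (SE 0.32) for C1R and 0.87 (SE 0.27) for CFB. Those of the membrane regulators were -0.27 (SE 0.07) for CD46, -0.47 (SE 0.07) for CD59 and 0.28 (SE 0.11) for CD55. The SE of CFB was 0.83 without the pairs. CFB was higher in ODC than in CTRL in 2 of the 3 pairs, and both libraries of the second pair were the highest of their group.

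Marker genes of cell types were set beside these at 24 h. Among the 8 markers of the renal epithelial list, KRT8, KRT18 and VIM were lower in every ODC library, with log2 fold changes of -0.62 (adjusted p = 0.202), -0.71 (adjusted p = 0.128) and -0.27 (adjusted p = 0.384), whereas PAX8 (0.33, adjusted p = 0.6) and CDH16 (1.53, adjusted p = 0.485) overlapped. The summed list, most of it VIM, was 4694 to 5460 CPM in CTRL and 3758 to 4636 CPM in ODC. The 7 monocyte and T cell markers summed to 0.439 to 0.836 CPM in CTRL and 0.971 to 1.68 CPM in ODC; in ODC most of this was CD14 and ITGAM. CD14 had 1 to 3 counts in CTRL and 4 to 10 in ODC, and ITGAM had 2 to 8 and 13 to 19, while PTPRC had 0 to 2 counts and CD3E 0 to 1. The 4 fibroblast markers summed to 6.69 to 21.8 CPM in CTRL and 20.3 to 49.3 CPM in ODC, nearly all of it PDGFRB, with COL3A1, LUM and DCN at 0 to 2 counts. The endothelial list was at or below 0.167 CPM and the hepatocyte list at or below 0.866 CPM. Their part in the results was not tested.

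**Figure D2:**
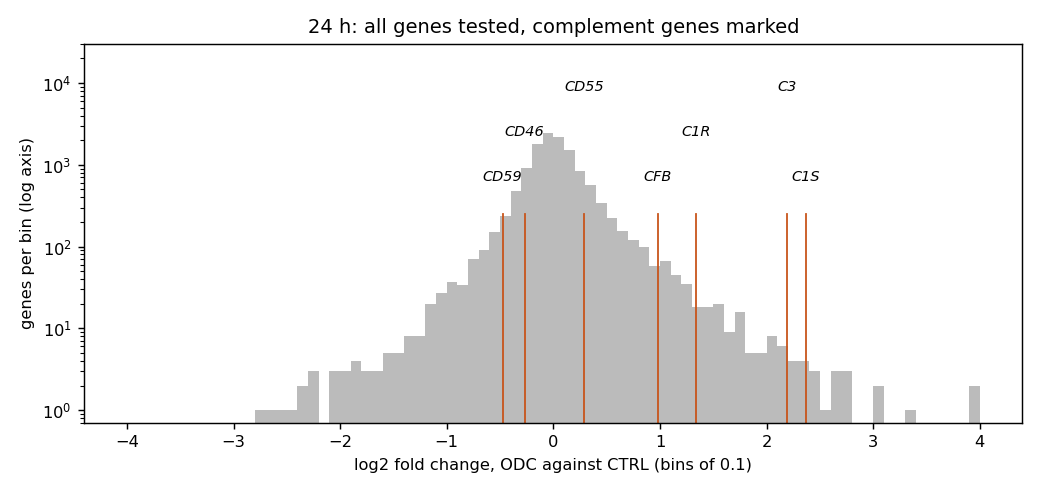
Number of genes (vertical axis, log scale) by log2 fold change of ODC against CTRL at 24 h in bins of 0.1 (grey bars), for the 12689 genes tested, with the 7 complement genes tested drawn as lines. C3 (2.19) and C1S (2.37) lie in the right tail, CD46 (-0.27) and CD59 (-0.48) left of the centre.

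The share of C3 among the 8 genes, in CPM and so not per length, was higher in every ODC library. C3 made up 3.57%, 6.20% and 5.02% of the summed CPM of the 8 genes in the CTRL libraries at 24 h, and 19.2%, 34.7% and 12.0% in the ODC libraries. The ranges of the sum overlapped, at 991 to 1146 CPM in CTRL and 988 to 1171 CPM in ODC. CD59 took 53.7% to 57.8% of the sum in CTRL and 33.8% to 46.6% in ODC.

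At 2 h the ODC and CTRL libraries overlapped for all 8 genes. Groups did not overlap for 15.5% of the 13332 genes tested. C3 was at 383 and 285 CPM in CTRL and 355, 318 and 692 CPM in ODC. ODC replicate 3 alone was high, and the log2 fold change of 0.43 (SE 0.31) was -0.00090 without it and 0.67 without CTRL replicate 1. C1S behaved alike, at 11.2 and 8.65 CPM in CTRL and 9.07, 8.45 and 15.7 CPM in ODC, with a log2 fold change of 0.14 (SE 0.28), of -0.19 without ODC replicate 3 and of 0.35 without CTRL replicate 1.

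The low-abundance genes C1R, CFB and CFI varied with the libraries. C1R was at 6.00 and 2.21 CPM in CTRL and 3.58, 1.87 and 4.78 CPM in ODC at 2 h. CFB was at 8.56 and 2.07 CPM in CTRL and 4.68, 2.77 and 6.92 CPM in ODC. CFI was at 5.88 and 1.96 CPM in CTRL and 3.55, 2.52 and 4.47 CPM in ODC. In all 3 genes CTRL replicate 1, the library with the collagen and C1q transcripts, was the highest of the 5, 2.72-fold above CTRL replicate 2 for C1R, 4.14-fold for CFB and 3.00-fold for CFI. The log2 fold changes were -0.28 (SE 0.48) for C1R, -0.17 (SE 0.56) for CFB and -0.18 (SE 0.44) for CFI. Without CTRL replicate 1 they were 0.62, 1.21 and 0.84, and without CTRL replicate 2 they were -0.83, -0.85 and -0.76, so the choice of control library set their sign. The part of the collagen and C1q transcripts in this was not tested.

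**Figure D3:**
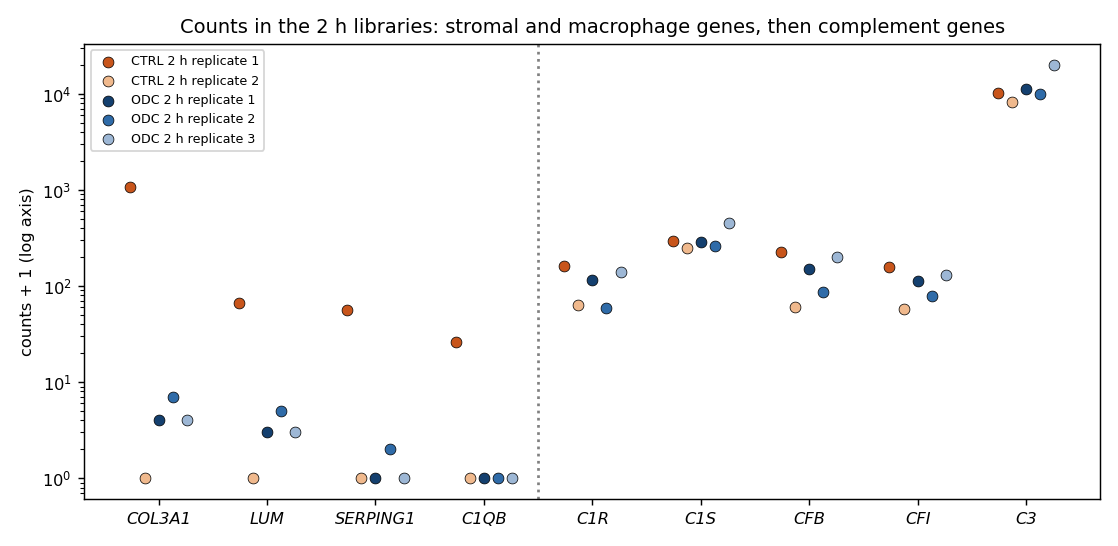
Counts plus 1 (vertical axis, log scale) in the 5 libraries of the 2 h time point (points) for COL3A1, LUM, SERPING1 and C1QB, left of the dotted line, and for 5 complement genes, right of it. CTRL replicate 1 holds 1081 counts of COL3A1 against 0 to 6 in the others, and has the highest count of C1R, CFB and CFI.

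The membrane regulators also overlapped at 2 h. CD46 was at 324 and 265 CPM in CTRL and 291, 266 and 242 CPM in ODC, with a log2 fold change of -0.16 (SE 0.12). CD55 was at 74.2 and 87.0 CPM in CTRL and 74.0, 87.2 and 93.5 CPM in ODC (log2 fold change 0.06, SE 0.12), and CD59 at 496 and 382 CPM in CTRL and 463, 377 and 437 CPM in ODC (log2 fold change -0.06, SE 0.14). Without CTRL replicate 1 the log2 fold change was 0.01 for CD46, -0.04 for CD55 and 0.16 for CD59. The study's looser call rule took in 0 of the 8 genes at 2 h in edgeR, beside 0.308% of all genes, and nothing is read from this.

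**Figure D4:**
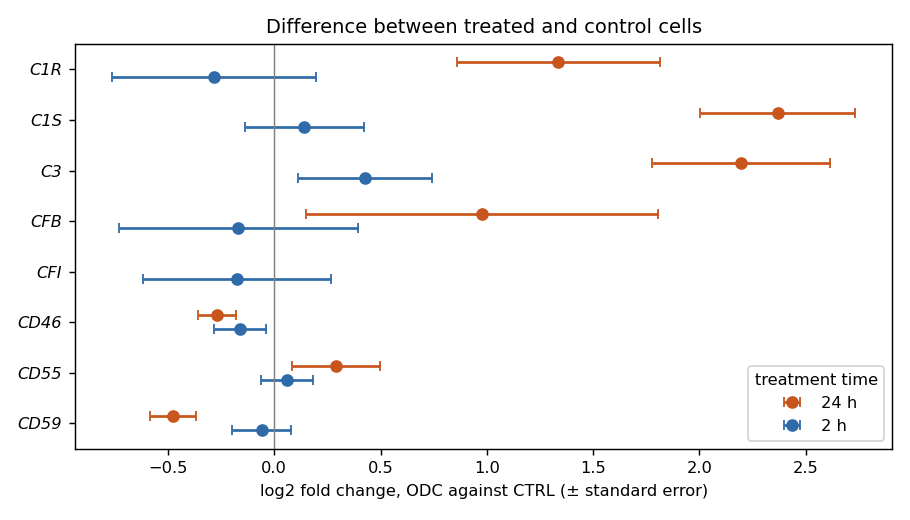
Log2 fold change of ODC against CTRL (horizontal axis, with SE) for each gene at 24 h (orange) and 2 h (blue). C1S, C3 and C1R are at 1.34 to 2.37 at 24 h and between -0.28 and 0.43 at 2 h; CFI is shown at 2 h only.

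In a joint fit of the 11 libraries, the log2 fold change at 24 h exceeded that at 2 h by 2.21 (SE 0.50) for C1S, 1.75 (SE 0.59) for C3 and 1.60 (SE 0.76) for C1R. For CFB the excess was 1.12 with an SE of 1.16, and for CFI, with few counts at 24 h, 1.53 with an SE of 1.49; over 18 alternatives the former ran from -0.25 to 2.00 and the latter from -1.17 to 2.80. CD59 went the other way, by -0.43 (SE 0.19), while CD46 (-0.13, SE 0.16) and CD55 (0.22, SE 0.28) differed by less than their SE and also changed sign under 1 alternative each. Without CTRL 2 h replicate 1, the excess was 2.01 for C1S, 1.51 for C3, 0.70 for C1R, -0.25 for CFB, 0.53 for CFI, -0.29 for CD46, 0.32 for CD55 and -0.64 for CD59.

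The control cells also differed between the time points. This contrast was not the one that chose the genes, but it shares its CTRL libraries with those that did, so it is not independent of the choice and is described here without p-values for the 8. An adjusted p under 0.05 in edgeR was met by 6 of the 8, 5 lower and 1 higher at 24 h, and by 22.4% of all 13333 genes, and nothing is read from that count. C3 was at 383 and 285 CPM in CTRL at 2 h and between 41.0 and 61.5 CPM at 24 h, a log2 difference of -2.68 (SE 0.45). For C1S it was -1.94 (SE 0.38) and for C1R -2.63 (SE 0.57). For all 3 the CTRL libraries of the time points did not overlap. The share of all genes for which this held is not given here, and nothing is read from it. Without CTRL 2 h replicate 1 the log2 differences were -2.44 for C3, -1.74 for C1S and -1.73 for C1R.

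The regulators parted. CFI had 212 counts in the 2 CTRL libraries at 2 h and 4 in the 3 at 24 h, a ratio of 55.3 in CPM with an exact 95% counting interval of 21.3 to 205.0. Its 56 counts in CTRL replicate 2 alone also stood above 0 to 3 per library at 24 h. CD55 was lower at 24 h, by a log2 difference of -0.92 (SE 0.21; -1.03 without CTRL 2 h replicate 1), and CD59 higher, by 0.45 (SE 0.14; 0.66). CD46 was at 0.34 (SE 0.12; 0.50) and CFB at -0.62 (SE 0.87), which turned to 0.75 without that library. These differences are between libraries that differ in time and in month.

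**Figure D5:**
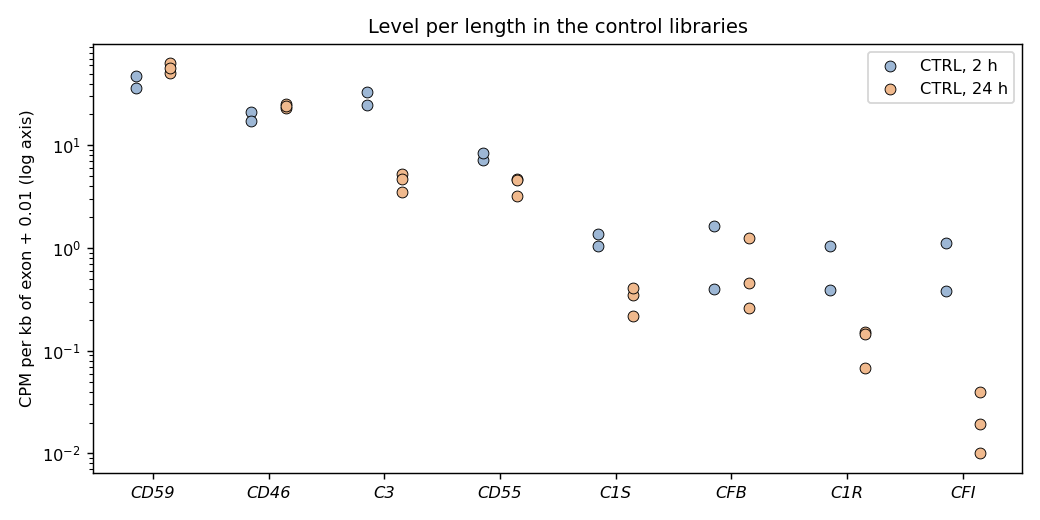
CPM per kb of annotated exon plus 0.01 (vertical axis, log scale) in each CTRL library (points) at 2 h and at 24 h. C3, C1S, C1R and CFI are lower at 24 h in every library, CD59 is higher and CFB overlaps.

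Levels per kb of annotated exon were set side by side for the 8 genes. The length took all annotated exons of a gene together, such as 15.5 kb for CD46 and 11.6 kb for C3. The transcripts present in these cells may be shorter, by a different factor for each gene, so the order depends on this length. In CTRL at 24 h CD59 led with 56.7 ± 6.16 CPM per kb, followed by CD46 with 24.0 ± 1.16 (SD, n = 3). C3 (3.54 to 5.31) and CD55 (3.18 to 4.66) came next with overlapping ranges, as did CFB (0.649 ± 0.525) and C1S (0.312 ± 0.0972), before C1R (0.112 ± 0.0473). CFI was last, at 0 to 0.0296 CPM per kb. In ODC at 24 h C3, at 20.6 ± 12.9 CPM per kb, overlapped CD46, at 19.9 ± 1.29, and C1S (1.61 ± 0.711) stood above C1R (0.288 ± 0.149) in every library. In CTRL at 2 h C3 was second, at 28.9 ± 5.95 CPM per kb (SD, n = 2), below CD59 at 41.6 ± 7.65 and above CD46, whose libraries were at 17.1 and 20.9.

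The 8 genes did not vary as one. Over the 11 libraries, with log2 CPM centred within each time point, Pearson's r was 0.96 between C3 and C1S, 0.94 between CFB and CFI and 0.86 between CD46 and CD59, as a description of libraries that share treatment, depth and month. Among 11989 other genes, the pattern most like that of C3 was that of APOL1 (r = 0.98) and then ABCC3 (r = 0.97), and C1S was closest to ABCC3 (r = 0.99) and PCSK7 (r = 0.97). C1R was closest to IQSEC2 and FUT8 (both r = 0.94), CFB to RRAS (r = 0.97) and SERPINB9P1 (r = 0.96), and CFI to ACSF2 (r = 0.96) and PQLC3 (r = 0.95). CD46 was closest to MORF4L2 and HSPBAP1, CD55 to SLC16A6 and CEP85L, and CD59 to GLCE and LGR5, at r between 0.94 and 0.98.

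Most other complement genes were absent or at low counts in these cells. Of 54 other components, regulators and receptors, 14 had 0 counts in every library, and 11 could be tested at 24 h and 14 at 2 h. C4A and C4B, the substrate of C1s, were listed at 0 in all 11 libraries, but these are near-identical copies whose reads the counting could have dropped. C2, the other substrate, had 0 to 13 counts. At 24 h, 0 of the 11 had an adjusted p under 0.05 in edgeR's quasi-likelihood test, as did 0.189% of all genes. At an unadjusted p under 0.05, 2 were higher and 1 lower, beside 12.2% of all genes. At an adjusted p under 0.05, DESeq2 gave 2, CLU among them, and 2.98% of all genes, and the fit with pairs gave 2 and 5.41%. Their median log2 fold change was 0.07, beside 0.00089 for all genes.

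Among the soluble regulators, CLU, which encodes clusterin, an inhibitor of the membrane attack complex, had 39, 35 and 35 counts in CTRL and 125, 96 and 86 in ODC at 24 h. The groups did not overlap, with a log2 fold change of 1.45 (SE 0.22, adjusted p = 0.0655; 0.0165 with pairs; 0.000146 to 0.295 over 15 alternatives, of which 4 passed). At 2 h CLU was at -0.09 (SE 0.37), and at 0.81 without CTRL replicate 1. SUSD4, a membrane regulator, was at 1.24 (SE 0.61, adjusted p = 0.464). Of the components, COLEC12, a collectin, was at -0.56 (adjusted p = 0.416), C1RL at 0.38 (adjusted p = 0.679) and C5 at -0.03 (adjusted p = 0.979). Of the receptors, ITGAM and ITGB2, which together form complement receptor CR3, were at 1.58 (adjusted p = 0.262, on 2 to 8 counts in CTRL and 13 to 19 in ODC) and 0.07 (adjusted p = 0.96).

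At 2 h, 0 of the 14 had an adjusted p under 0.05 in either tool, as did 0% of all genes in edgeR and 0.0075% in DESeq2. In edgeR, 1 of the 14 and 2.34% of all genes had an unadjusted p under 0.05. For the difference between the time points, 0 of 14 passed in either tool, beside 0.015% of all genes in edgeR and 0.285% in DESeq2. In edgeR, 2 of the 14 and 5.93% of all genes had an unadjusted p under 0.05 for this difference. Between the control sets, 2 of 14 passed in edgeR, beside 22.4% of all genes, and both were lower at 24 h: CLU by -1.89 (SE 0.35, adjusted p = 0.00371; 0.0452 without CTRL 2 h replicate 1) and CFP, the gene of properdin, which stabilises the alternative pathway enzyme, by -1.82 (SE 0.40, adjusted p = 0.00862; 0.0341 without that library). CFP was named after its values were seen.

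Lists of genes around complement were counted the same way at 24 h. Of 39 tested genes in all, 0 had an adjusted p under 0.05 in edgeR, and 5 were higher and 3 lower at an unadjusted p under 0.05, where 12.2% of all genes were. At an adjusted p under 0.05, DESeq2 gave 3 (CEBPD, FGA and FGB) beside 2.98% of all genes, and the fit with pairs gave 4 (these and SAA1) beside 5.41%. Among transcription factors known to act on complement genes, 1 of 7 was higher at an unadjusted p under 0.05: CEBPD, with 103, 137 and 91 counts in CTRL and 218, 237 and 188 in ODC (log2 fold change 0.92, SE 0.21, adjusted p = 0.139; 0.0185 with pairs, and 0.00802 to 0.520 over the alternatives). NFKB1 was at 0.17 (adjusted p = 0.644).

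Of 6 acute phase genes tested, 2 were higher and 2 lower at an unadjusted p under 0.05, beside the 12.2% of all genes. SAA1, a serum amyloid A gene with the near copy SAA2, had 2867, 3412 and 8370 counts in CTRL and 11936, 12218 and 12362 in ODC (log2 fold change 1.24, SE 0.40, adjusted p = 0.265; 0.0488 with pairs, 1.96 and 0.00851 without CTRL replicate 3, and up to 0.690 over the alternatives). The fibrinogen genes went the other way, FGB at -1.57 (SE 0.26, adjusted p = 0.0733; 0.011 with pairs) and FGA at -2.30 (SE 0.46, adjusted p = 0.108; 0.0149 with pairs), and over the alternatives the highest were 0.295 and 0.361. Of 26 genes of GPI anchor synthesis, on which CD55 and CD59 depend, 2 were higher and 1 lower at an unadjusted p under 0.05, about the 12.2% of all genes: PGAP3 at 0.61 (adjusted p = 0.295), PIGO at 0.22 (adjusted p = 0.351) and PIGC at -0.38 (adjusted p = 0.286). At 2 h, 0 of 38 passed in either tool, and 2 (CEBPB and PIGQ) had an unadjusted p under 0.05 in edgeR, beside 2.34% of all genes.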

How the data were processed

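The labels put 11 libraries of Caki-1-SR cells into CTRL and ODC at 24 h and 2 h. The authors deposited raw counts per gene symbol, made from stranded mRNA libraries aligned to hg38 with STAR and counted with HTSeq 0.9.1; the submitters' processing notes give STAR 2.7.0f and edgeR 3.26.8, while the study's methods give other versions of both. The counting annotation and strand setting are not given in the sources used here. From the deposited counts, ODC was compared with CTRL within each time point in edgeR 4.0.16 (R 4.3.3), with TMM scaling, filterByExpr (minimum count 10, minimum total 15) and the earlier quasi-likelihood test, two-sided, with Benjamini-Hochberg adjustment over all genes tested. Tested were 12689 genes for 24 h and 13332 for 2 h. A joint fit of 4 groups (13333 genes) gave the difference between time points and that between control sets. Log2 fold changes come from these fits, and CPM values use TMM factors over all libraries. The counting interval of CFI covers counting error only. Replicates differed beyond sampling noise, with a chi-square per gene of 18.7 to 58.0.

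The members and lists were chosen with earlier results of these data known. The text names all 8 members. Of each other list it names those passing an adjusted p of 0.05 at either time, otherwise up to 3 with the smallest p at 24 h, and of all genes the 2 most like each member. A few genes that this rule would name are left out of the text. Alternatives were other filters (at least 1 count, or more than 1 CPM in at least 3 libraries), other scalings, edgeR's newer quasi-likelihood method, DESeq2 1.42.0, a joint fit, leaving out each library and, added after the data were seen, a replicate block of neighbouring library numbers at 24 h. The labels do not say what these pairs share; within them, departures from the group means had a correlation of 0.197, 0.581 and 0.443 over 12689 genes. The tests were tested on simulated data. Of 100 genes changed 2-fold, 72 were recovered for 24 h, 84 for 2 h and 44 for the difference between time points. False calls were 12, 15 and 6. Of 100 genes changed 4-fold, 100 were recovered for 24 h, 99 for 2 h and 84 for the difference between time points. Changes of 2-fold could therefore be missed, most of all in the difference between time points. In the data a larger difference could also fail. FGA, at a log2 fold change of -2.30 at 24 h, had an adjusted p of 0.108 in edgeR's quasi-likelihood test. The simulated recovery may therefore overstate that in the data. Positions come from GENCODE 44, promoters from RefSeq, and figures from matplotlib 3.10.9 in Python 3.11.15.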

Additional observations from a re-analysis of the deposited data

How the results depend on the processing

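The log2 fold changes of C1S, C3, C1R, CD46, CD55 and CD59 at 24 h kept their sign under all 15 alternatives, and that of CFB under 14 of 15. Except for CD55 and CFB, the groups did not overlap, so leaving out a library could hardly have turned a sign. Nothing is read from these signs. The number of the 8 genes with an unadjusted p under 0.05 and a 2-fold difference was 2 to 4 at 24 h when single libraries were left out. At 2 h it was 0 when single ODC libraries were left out. The share of all genes is not given for these fits, and nothing is read from the counts. The number of other complement genes with an adjusted p under 0.05 at 24 h was 1 when genes with as few as 1 count were kept, 2 with DESeq2, 1 in the joint fit, 2 with the replicate block and 0 to 1 over single libraries left out; at 2 h it was 0 to 1, the 1 being SERPING1, seen in CTRL replicate 1 only, without CTRL replicate 2. For the lists around complement it was 1 when genes with as few as 1 count were kept, 3 with DESeq2, 1 in the joint fit, 4 with the replicate block and 0 to 1 over single libraries left out at 24 h. The number of the 8 differing between the control sets also varied over single libraries left out, and nothing is read from it. Over single libraries left out, directions turned for C5 (-0.21 to 0.16) and ITGB2 (-0.27 to 0.39) at 24 h, CLU (-0.63 to 0.81) at 2 h, and CFB between the control sets (-1.50 to 0.75). The excess of 24 h over 2 h turned for CFB, CFI, CD46 and CD55. At 2 h the log2 fold changes of all 8 genes kept their sign under only 11 or 12 of 13 alternatives. The causes were not tested. The replicate block pairs neighbouring library numbers at 24 h and was chosen after seeing the data. It left the number of the 8 genes meeting the looser call rule at 3, beside 2.73% of all genes. It raised the genes with an adjusted p under 0.05 to 686 of 12689 (24 without it). At 2 h the numbers do not alternate, and no pairs could be formed. With 2 CTRL libraries at 2 h, leaving out either assumes that the remaining one varies like the others, and genes of few counts, CFI at 24 h among them, were limited by depth.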
